A study of Homo sapiens with 15 samples.

Results

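Replication-dependent histone genes supply the H1, H2A, H2B, H3 and H4 proteins that package newly copied DNA. They were taken from the deposited gene table by symbol: the current human symbols of the clustered genes (H1-1 to H1-6, H2AC, H2BC, H3C and H4C followed by a number) and the older HIST symbols, without symbols that end in P or in P and a digit, the form used for pseudogenes. The rule found 66 of the 60612 genes in the table. By class these were 6 H1, 16 H2A, 17 H2B, 13 H3 and 14 H4 genes, of which 55 lie on chromosome 6 and 11 on chromosome 1.

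Their expression was measured by bulk RNA-seq in 15 libraries made from established human glioma lines, U251 and U87. The 5 groups, of 3 libraries each, were U251 cells stably transfected with the short hairpin RNA (shRNA) 1812, U251 cells with the shRNA 1813, U251 control cells, U87 cells with 1812 and U87 control cells. Both hairpins are directed at LAMP2A, the LAMP2 isoform that acts as the receptor of chaperone-mediated autophagy, so the study compares glioma cells that carry a hairpin against it with control cells. Controls are labelled wild type, with no hairpin or empty vector named for them, and the labels do not say whether a line is 1 clone or whether its 3 libraries are separate cultures.

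In dividing cells most of these genes are transcribed in S phase, from clusters gathered at histone locus bodies around the factor NPAT. Their mRNAs end in a conserved stem-loop in place of a poly(A) tail. The stem-loop is bound by SLBP, and the end is cut with the help of the U7 small nuclear RNP, of which LSM11 is a subunit. Several members also give longer, polyadenylated transcripts that run past the stem-loop, and these can be made outside S phase. A list of 6 such members, called the poly(A) list here, was written from this background: H1-2, H2AC6, H2BC4, H2BC5, H2BC12 and H2BC21.

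The stem-loop was searched for in GENCODE 29 transcripts (GRCh38), within 100 bases after the stop codon, as the 16 letters GGNNNTNTNNANNNCC with all 6 base pairs of the stem possible. It was found in 27 of the 64 members that have an entry there. Only 48 of 58287 coding transcripts of all genes held it (0.0824%), from 40 genes, so 13 of the genes were no members. Of the 37 members without a match, 32 have models with fewer bases after the stop codon than the stem-loop is long, so that these models could not show it. The 27 matches comprised 5 different sequences, 1 of which occurred in 15 members. The following sites show members on which the results turn, each with 5 bases on either side and the 16 letters of the stem-loop in capitals, read 5′ to 3′ on the gene's strand.
H2AC6: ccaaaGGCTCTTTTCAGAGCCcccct
H2BC4: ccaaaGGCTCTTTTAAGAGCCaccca
H2BC21: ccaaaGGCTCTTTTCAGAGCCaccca
H2AC8: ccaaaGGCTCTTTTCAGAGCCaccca
H4C8: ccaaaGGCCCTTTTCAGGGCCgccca
H4C9: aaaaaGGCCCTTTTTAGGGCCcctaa
The capitals lie at chr6:26124669-26124684 (+) in H2AC6, chr6:26123472-26123487 (-) in H2BC4, chr1:149886188-149886203 (-) in H2BC21, chr6:26217417-26217432 (+) in H2AC8, chr6:26285131-26285146 (-) in H4C8 and chr6:27139654-27139669 (+) in H4C9. H2BC21 and H2AC8 print alike over all 26 bases, yet their annotated ends differ. In H2AC8 the transcript runs 51 bases past the stem-loop, while the longest transcript of H2BC21 runs 1729 bases past it and that of H2AC6 1114 bases. Of the 27 members with a stem-loop, 20 had a coding transcript more than 100 bases past it or a coding transcript that lacks it. H2BC5 is among them only by the latter, with 39 bases past the stem-loop. The other 7 had only ends within 100 bases of it.

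The genes lie close together and often back to back. In 11 pairs of members, start sites on opposite strands were separated by 214 to 318 bases. RefSeq promoters (GRCh38.p14, the 250 bases before the start, both strands) gave 65 entries for members. The octamer ATTTGCAT, the letters bound by POU-family factors, stood in 73.3% of the H2A entries, 78.9% of the H2B entries, 1 of 13 H3 entries and in 0 of the H1 and H4 entries, against 1.63% of all 35116 promoters. CCAAT was in 86.2% of member entries against 32.0% of all promoters, and TATAAA in 67.7% against 10.7%. By class, CCAAT stood in all H1, H2A, H2B and H3 entries but in only 3 of 12 H4 entries. The H4 share was thus below that of all promoters. A pair of these stretches is shown because the genes beside them behaved differently in the libraries, as the values further on give. The H2AC6 stretch reaches from the start of H2BC4 to that of H2AC6 (chr6:26123927-26124144, read on the strand of H2AC6), and the H2AC14 stretch from the start of H2BC14 to that of H2AC14 (chr6:27814778-27815021, read on the strand of H2AC14). Capitals mark the octamer, CCAAT and TATAAA on either strand, where ATGCAAAT, ATTGG and TTTATA are the letters of the opposite strand.
H2AC6: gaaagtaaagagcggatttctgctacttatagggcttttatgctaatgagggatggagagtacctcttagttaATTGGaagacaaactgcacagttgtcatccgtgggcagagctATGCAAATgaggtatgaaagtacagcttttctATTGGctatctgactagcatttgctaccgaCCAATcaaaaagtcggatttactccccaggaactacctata
H2AC14: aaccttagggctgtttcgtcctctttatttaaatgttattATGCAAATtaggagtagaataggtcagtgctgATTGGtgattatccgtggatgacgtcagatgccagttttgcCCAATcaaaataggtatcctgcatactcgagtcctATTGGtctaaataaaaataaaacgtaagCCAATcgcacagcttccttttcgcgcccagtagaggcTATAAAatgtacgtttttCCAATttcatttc
The H2AC6 stretch held 1 octamer, 3 CCAAT and 0 TATAAA, and the H2AC14 stretch 1 octamer, 5 CCAAT and 1 TATAAA. The stretch between H2BC12, like H2AC6 on the poly(A) list, and H2AC12 is not printed. It held 1 octamer, 6 CCAAT and 3 TATAAA, so the lack of TATAAA was not shared by that list. These are matches of letters only, and their part in the levels of the genes was not tested.

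Library totals were 14002652 to 18924072 counts. LAMP2 as a whole gene fell in U251 1812 (316, 313 and 327 CPM, counts scaled to library size, against 659, 710 and 710 CPM in U251 control; log2 fold change -1.12, edgeR quasi-likelihood adjusted p = 0.00353). In U251 1813 it was 388, 418 and 400 CPM (log2 fold change -0.79, adjusted p = 0.0907). The U87 libraries labelled 1812 held 257, 256 and 289 CPM of LAMP2 against 195, 294 and 291 CPM in U87 control (log2 fold change 0.04, adjusted p = 0.892), so the label was not borne out at the level of the gene, and counts per gene do not separate the LAMP2A isoform. Of the glial markers, VIM was at 2800 to 6660 CPM in all libraries and NES at 187 to 277 CPM in U251 and 24.7 to 62.0 CPM in U87, while S100B was at or below 1.58 CPM in every library. GFAP was at 26.0, 14.9 and 11.7 CPM in U251 1812 and 43.1, 63.0 and 58.8 CPM in U251 1813, against 144, 107 and 96.6 CPM in U251 control, and at most 2.1 CPM in U87. SOX2 was at 97.9 to 203 CPM in U251 and at most 0.352 CPM in U87. Markers of leukocytes (PTPRC), T cells (CD3E) and liver (ALB) stayed at or below 1.07 CPM, EPCAM at or below 1.98 CPM and PECAM1 at or below 7.4 CPM.

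Together the 66 histone genes received 1350 to 3872 counts per library, or 0.00713% to 0.0273% of all counts. The 6 genes of the poly(A) list took 70.9% of these counts, and H2AC6 and H1-2 alone 43.3%. At the other end, H2AC1, H2BC1, H2AC15 and H4C7 had 0 counts in all 15 libraries, which allows a level of up to 0.0127 CPM (3 counts over all libraries, counting error only). For H2AC15, which overlaps H2BC15 on the other strand, this limit is uncertain, because the counting strand is not given. Of noncoding RNAs, RNU7-1, RN7SK and RPPH1 had 0 counts in every library, where the labels describe depletion of ribosomal RNA and random priming. RN7SL1 and MALAT1 did have counts in every library, as the values further on give. Shares and ranks by counts are not corrected for the length of the gene. Apart from them, genes were compared with each other in FPKM, the authors' values per length of gene and per library total. As means of 15 libraries, H2BC12 was first at 51.6 FPKM, before H1-2 at 44.8 FPKM and H2AC6 at 21.4 FPKM.

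Outside the poly(A) list the members were divided by the exonic length of the deposited gene model, a split made after the values were seen. The 41 genes with models under 800 bases (386 to 797 bases, room for a transcript that ends at the stem-loop) are called short models, and the 19 with 834 to 5477 bases long models. The median of mean FPKM was 0.397 over the short models, 0.454 over the long models and 14.9 over the poly(A) list. On that list H2BC12 and H1-2, its highest genes, also have models under 800 bases (495 and 731 bases). Their GENCODE 29 models hold 0 bases after the stop codon, so no longer end is annotated for them there. The leading genes of each class were H1-2 and H1-5 (44.8 and 1.45 FPKM), H2AC6 and H2AC8 (21.4 and 2.51 FPKM), H2BC12 and H2BC5 (51.6 and 8.47 FPKM), H3C2 and H3C10 (1.45 and 1.03 FPKM) and H4C9 and H4C8 (5.62 and 1.87 FPKM).

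**Figure D1:**
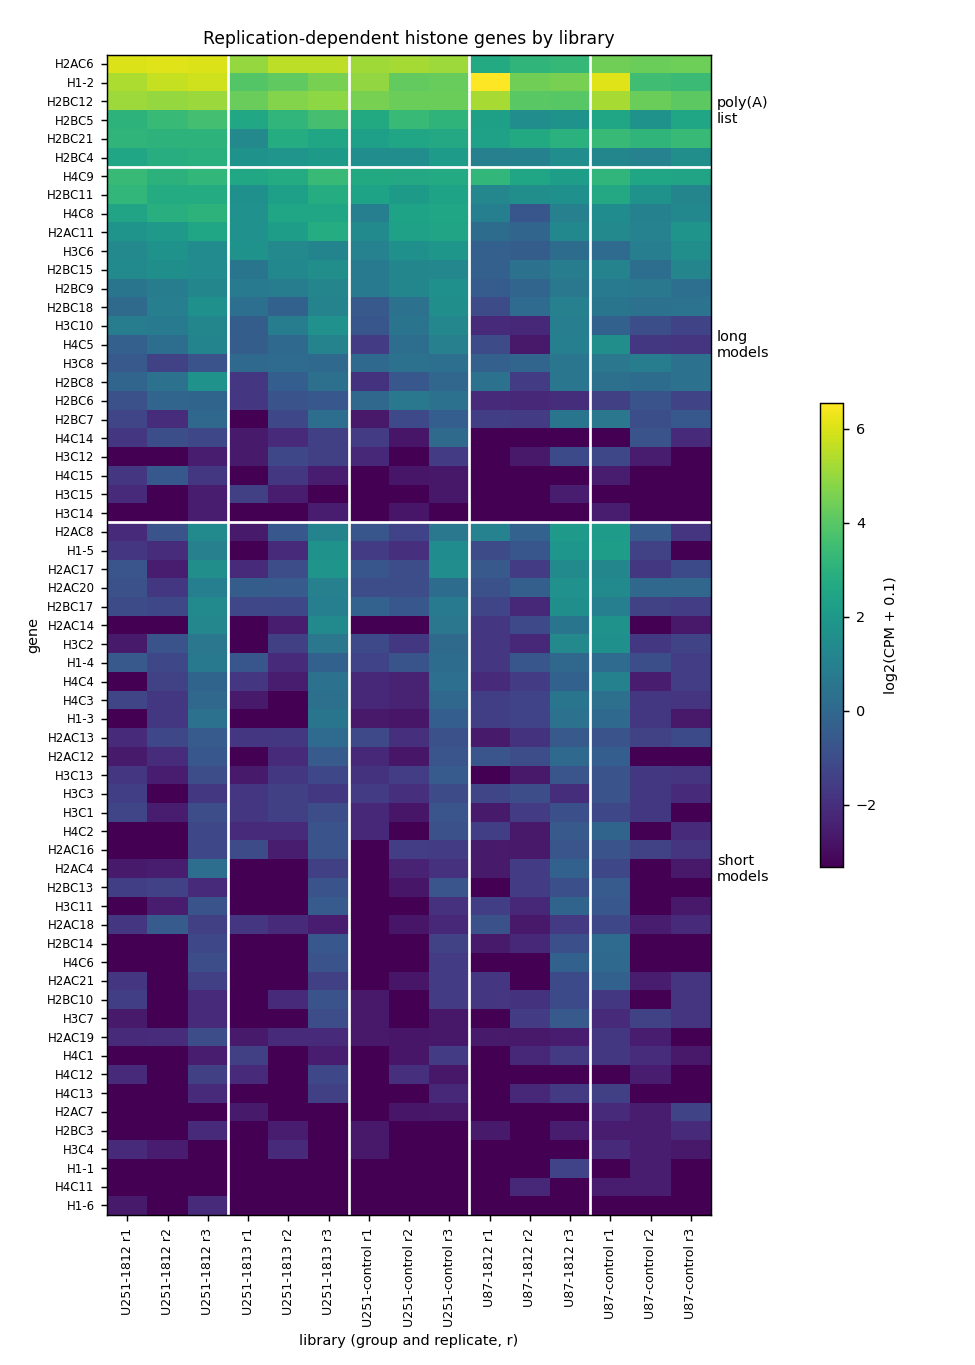
Level of 62 replication-dependent histone genes (rows, those with at least 1 count) in the 15 libraries (columns, by group and replicate), as log2(CPM + 0.1), from dark blue (0 counts) to yellow. White lines part the groups and the poly(A) list, the long models and the short models; the short models are brightest in 1 column of each group, replicate 3 in 4 groups and replicate 1 in U87 control.

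The short models, which leave out H1-2 and H2BC12 of the poly(A) list, set 1 library apart in each group. Their summed level was 5.09, 4.61 and 27.0 CPM in U251 1812, 3.90, 4.45 and 28.4 CPM in U251 1813, 4.79, 4.2 and 21.3 CPM in U251 control, 7.57, 7.17 and 33.1 CPM in U87 labelled 1812 and 36.1, 5.59 and 5.13 CPM in U87 control, for replicates 1, 2 and 3. The high library was replicate 3 in 4 groups and replicate 1 in U87 control, and it stood 4.37 to 6.46 times above the next library of its group. It held 378 to 537 counts on short models, where the others held 59 to 122. Of the short models with any count in a group, 29 of 34 were highest in that library in U251 1812, 27 of 34 in U251 1813, 28 of 34 in U251 control, 30 of 33 in U87 labelled 1812 and 30 of 36 in U87 control. The other 10 libraries lay between 3.90 and 7.57 CPM, so the 5 high libraries overlapped with none of them. The libraries were picked for these values, and no test was made. In bulk libraries more cells in S phase and more histone RNA per cell cannot be told apart. Different extraction kits and sequencing instruments appear in the labels without being assigned to libraries, so whether the 5 libraries were prepared differently was not tested.

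Single genes show the same libraries. H1-5, a linker histone that binds DNA between nucleosomes, had 0.26, 0.18 and 2.48 FPKM in U251 1812 and 0, 0.17 and 4.04 FPKM in U251 1813, against 0.30, 0.20 and 3.73 FPKM in U251 control. In U87 labelled 1812 it had 0.45, 0.60 and 4.08 FPKM, against 4.84, 0.36 and 0 FPKM in U87 control. The highest library of each group was the one named above. H2AC14, a core histone H2A gene, was at 0, 0 and 5.04 FPKM in U251 1812, 0, 0.14 and 5.32 FPKM in U251 1813 and 0, 0 and 3.25 FPKM in U251 control. It was at 0.37, 0.67 and 2.56 FPKM in U87 labelled 1812 and 5.99, 0 and 0.13 FPKM in U87 control. Of its 173 counts in all, 162 fell in those 5 libraries. H2BC14, the H2B gene across the H2AC14 stretch printed above, was at 0.75, 1.17, 0.66, 0.87 and 1.9 FPKM in the 5 high libraries and at 0 to 0.23 FPKM in the other 10.

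The other classes held the pattern too. H2AC8, whose only annotated end is at the stem-loop, had 0.27, 0.98 and 5.27 FPKM in U251 1812, 0.13, 1.07 and 4.04 FPKM in U251 1813 and 1.05, 0.63 and 3.16 FPKM in U251 control. Its U87 values were 3.61, 1.35 and 7.05 FPKM with label 1812 and 7.46, 1.26 and 0.37 FPKM in control, so that replicate 1 of the 1812 group was raised as well. H3C2, an H3.1 gene, had 0.13, 0.98 and 2.90 FPKM in U251 1812, 0, 0.53 and 2.81 FPKM in U251 1813 and 0.70, 0.42 and 2.06 FPKM in U251 control. It had 0.35, 0.21 and 4.37 FPKM in U87 labelled 1812 and 5.23, 0.42 and 0.62 FPKM in U87 control. H4C3 and H4C4, which encode the same H4 protein, were highest in the same 5 libraries, at 2.27 to 3.01 and 1.68 to 4.27 FPKM there and at most 0.84 and 0.71 FPKM elsewhere.

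**Figure D2:**
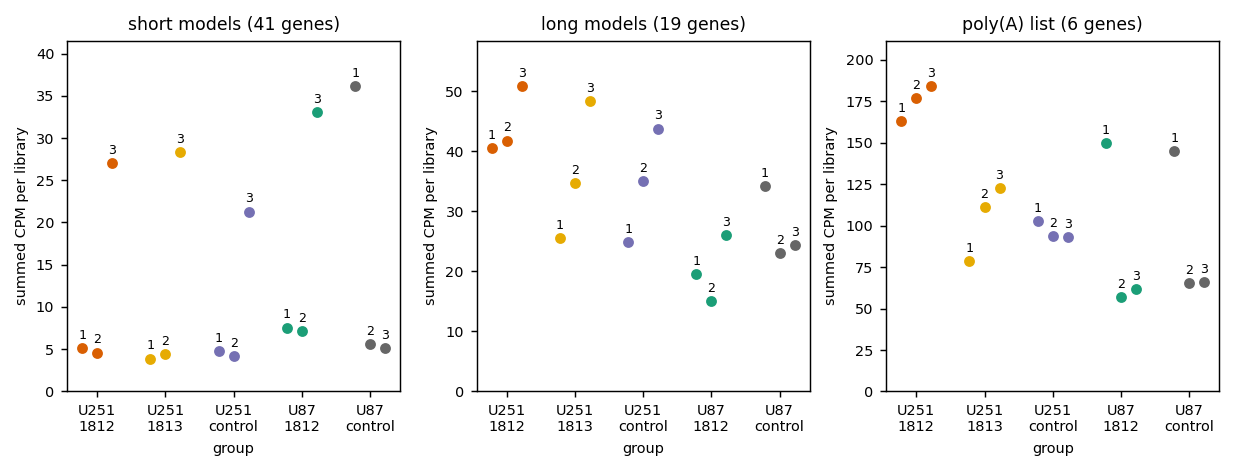
Summed CPM of the 41 short models, the 19 long models and the 6 poly(A)-list genes in each library (points, labelled with the replicate number) by group, with each axis starting at 0. Short models separate 1 library per group (21.3 to 36.1 CPM) from the others (3.90 to 7.57 CPM), and the other panels do not repeat that gap.

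Long models followed this only in part. Their summed level was 1.22, 1.39, 1.25, 1.33 and 1.41 times that of the next library in the same 5 libraries, in the order of the groups above. The poly(A) list stood at 1.04, 1.11, 0.905, 0.413 and 2.19 times the highest other library, so that in U251 control and U87 labelled 1812 another library was higher. H1-2 and H2BC12, on that list but with models under 800 bases, were both highest in replicate 1 in those groups. In U251 1813 and U87 control both were highest in the library named above, and in U251 1812 only H1-2 was. The pattern thus does not cover all models under 800 bases. H3C10, a long H3 model, had 0.10, 0.09 and 1.31 FPKM in U87 labelled 1812 but 0.53, 0.34 and 0.26 FPKM in U87 control. In U251 it had 1.43, 1.39 and 1.88 FPKM with 1812, 0.53, 1.38 and 2.55 FPKM with 1813 and 0.43, 1.13 and 2.05 FPKM in control.

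Other measures of the same libraries stand beside this pattern, and their part in it was not tested. The 45 genes of DNA replication in a fixed list, among them MCM, POL, RFC and RRM genes, summed to 4560, 4870 and 4810 CPM in U251 1812, 5360, 5010 and 4870 CPM in U251 1813 and 5240, 4140 and 4040 CPM in U251 control. They summed to 7730, 6380 and 6090 CPM in U87 labelled 1812 and 6680, 3850 and 3880 CPM in U87 control. The library high in short histone models was the highest in replication genes only in U87 control, and it was the lowest in U251 1813, U251 control and U87 labelled 1812. RN7SL1, the RNA of the signal recognition particle, was highest in the same library of every group: 9.85 CPM against 6.44 and 4.2 CPM in U251 1812, 12 against 7.27 and 7.21 in U251 1813, 12.4 against 5.32 and 4 in U251 control, 14.5 against 6.87 and 11.3 in U87 labelled 1812, and 15.3 against 8.70 and 12.4 in U87 control. MALAT1 and NEAT1, nuclear noncoding RNAs, marked other libraries: MALAT1 was at 250 to 391 CPM in control replicates 2 and 3 of both lines and at 32.6 to 101 CPM in the other 11.

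**Figure D3:**
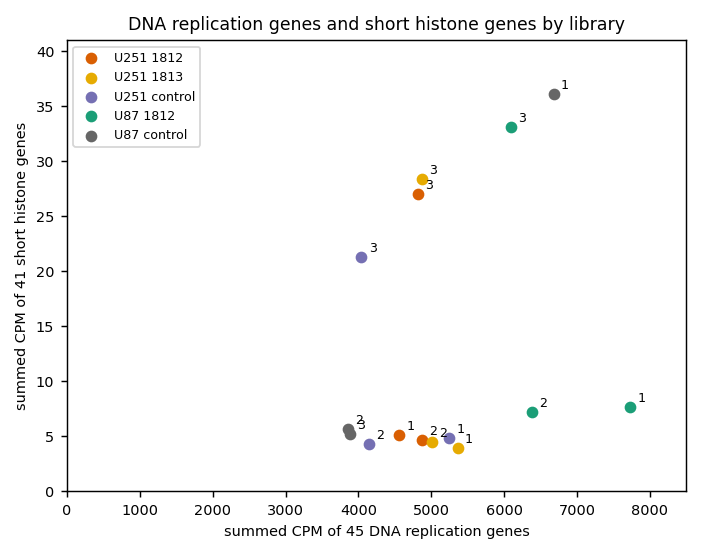
Summed CPM of the 41 short histone models (vertical) against summed CPM of the 45 DNA replication genes (horizontal) for the 15 libraries, coloured by group and labelled with the replicate number. The 5 libraries above 21 CPM of short models lie at 4040 to 6680 CPM of replication genes, within the 3850 to 7730 CPM that the other 10 cover.

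The summed level of the poly(A) list was 175 ± 10.7 CPM in U251 1812 and 104 ± 23.0 CPM in U251 1813, against 96.7 ± 5.49 CPM in U251 control (SD, n = 3 each). In U87 it was 89.7 ± 52.3 CPM with label 1812 and 92.2 ± 45.7 CPM in control. The 3 libraries of U251 1812 (163, 177 and 184 CPM) lay above all libraries of the other 4 groups, whose highest value was 150 CPM. In both U87 groups replicate 1 stood apart, at 150 CPM against 57.1 and 62.0 CPM with label 1812 and at 145 CPM against 65.6 and 66.1 CPM in control. No test was made of these sums.

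H2AC6, an H2A gene at chr6:26124145-26139116 (+), was called in both lines, in opposite directions. It had 41.7, 42.3 and 41.2 FPKM in U251 1812 and 18.9, 28.8 and 29.2 FPKM in U251 1813, against 21.6, 24.0 and 22.9 FPKM in U251 control. The 1812 libraries lay above all others of the line, and 1813 overlapped with control. In U87 it had 3.63, 4.72 and 5.24 FPKM with label 1812, against 11.4, 12.5 and 12.8 FPKM in control, with no overlap. H2AC6 rose 1.86-fold in U251 1812 (log2 fold change 0.89, SE 0.16, edgeR quasi-likelihood adjusted p = 0.024, with a 95% interval of 0.55 to 1.24). It fell to 0.396 of control in U87 labelled 1812 (SE 0.17 around a log2 fold change of -1.34, adjusted p = 0.000547, with a 95% interval of -1.70 to -0.97). The difference between the effects of 1812, U87 minus U251, was -2.23 on the log2 scale (SE 0.24, edgeR adjusted p = 0.000501, with a 95% interval of -2.73 to -1.73).

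The H2AC6 values did not follow the 5 libraries high in short models. Control replicate 1 of U87 had 11.4 FPKM and the other U87 controls 12.5 and 12.8 FPKM, and without the 5 libraries its log2 fold change was -1.41 in U87 and 0.88 in U251. The size held in all 14 alternatives in each line, at -1.44 to -1.19 in U87 and 0.87 to 0.92 in U251. The U87 call was lost in 1 alternative, a fit of the U87 groups alone (adjusted p = 0.101). The U251 call was lost in 7 of 14 (adjusted p up to 0.139): without any 1 of U251 1812 replicates 1, 2 and 3 or U251 control replicates 2 and 3, with control replicate 1 alone, and without the 5 libraries. With 1813 the log2 fold change of H2AC6 was 0.25 (SE 0.16, edgeR adjusted p = 0.482, with a 95% interval of -0.10 to 0.59).

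**Figure D4:**
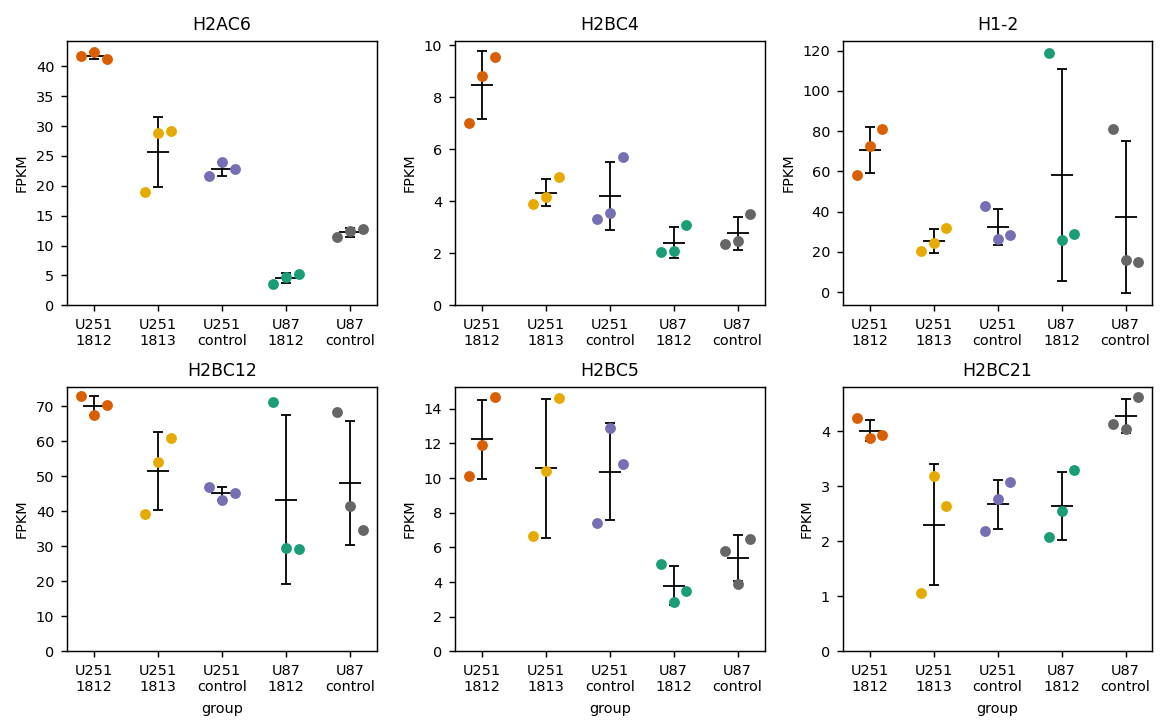
FPKM of the 6 poly(A)-list genes in each library (points) by group, with the group mean (long bar) and SD (whiskers, n = 3). H2AC6 is at 41.2 to 42.3 FPKM in U251 1812 against 21.6 to 24.0 in U251 control, and at 3.63 to 5.24 in U87 labelled 1812 against 11.4 to 12.8 in U87 control, while H1-2 and H2BC12 have 1 high library in each U87 group.

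H2BC4, the H2B gene on the other side of the H2AC6 stretch, had 7.01, 8.82 and 9.57 FPKM in U251 1812 and 3.90, 4.18 and 4.93 FPKM in U251 1813, against 3.34, 3.55 and 5.71 FPKM in U251 control. All 1812 libraries were above all controls, but the change missed the threshold (log2 fold change 1.04, SE 0.25, edgeR adjusted p = 0.0679). The U87 libraries had 2.06, 2.09 and 3.09 FPKM with label 1812 and 2.35, 2.47 and 3.50 FPKM in control, which overlapped (log2 fold change -0.11, SE 0.27, adjusted p = 0.822, with a 95% interval of -0.69 to 0.47). The difference between the lines was -1.15 (SE 0.37, edgeR adjusted p = 0.0939).

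H1-2, a linker histone and the member with the second most counts, had 58.3, 72.5 and 80.9 FPKM in U251 1812 and 20.3, 24.4 and 32.0 FPKM in U251 1813, against 42.9, 26.5 and 28.4 FPKM in U251 control. In U87 it had 119, 26.1 and 29.1 FPKM with label 1812 and 81.2, 16.03 and 14.8 FPKM in control. Replicate 1 was several times higher than replicates 2 and 3 in both U87 groups, so the groups overlapped, whereas the U251 1812 libraries lay above all U251 controls. The fitted changes did not pass (log2 fold change 1.13, SE 0.65, adjusted p = 0.405 in U251 1812; 0.63, SE 0.64, adjusted p = 0.536 in U87; edgeR).

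Among the H2B genes of the list, H2BC12 had 72.8, 67.4 and 70.2 FPKM in U251 1812, 39.3, 54.0 and 61.0 FPKM in U251 1813 and 46.9, 43.3 and 45.3 FPKM in U251 control (log2 fold change of 1812 0.65, SE 0.33, edgeR adjusted p = 0.35). In U87 replicate 1 was again the high library, at 71.2 against 29.5 and 29.3 FPKM with label 1812 and 68.2 against 41.6 and 34.5 FPKM in control. H2BC5 had 10.2, 11.9 and 14.7 FPKM in U251 1812, 6.64, 10.4 and 14.6 FPKM in U251 1813 and 7.41, 12.9 and 10.8 FPKM in U251 control, with wide overlap. Its levels in U87 were 5.04, 2.85 and 3.50 FPKM with label 1812 and 5.79, 3.91 and 6.49 FPKM in control. H2BC21, on chromosome 1, had 4.24, 3.87 and 3.93 FPKM in U251 1812, above the 2.19, 2.77 and 3.07 FPKM of U251 control (log2 fold change 0.61, SE 0.29, adjusted p = 0.324), and 1.07, 3.18 and 2.65 FPKM in U251 1813. In U87 it had 2.08, 2.55 and 3.30 FPKM with label 1812, below the 4.14, 4.05 and 4.63 FPKM of control (log2 fold change -0.60, SE 0.29, adjusted p = 0.183). H2AC20, whose start lies 265 bases from that of H2BC21, is a short model and followed the 5 libraries instead, at 3.86, 3.88, 2.25, 5.76 and 4.45 FPKM in them and 0.43 to 1.87 FPKM in the others.

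Counts over the members were small throughout. Only 31 of the 66 had enough counts to be tested (4 H1, 6 H2A, 12 H2B, 4 H3 and 5 H4; 11 of the 41 short models, 14 of the 19 long models and all 6 of the poly(A) list), out of 16841 genes tested. In each of the 11 short models tested, most counts fell in the 5 libraries high in short models (78 of 139 in H1-4, 162 of 173 in H2AC14). Their estimates thus rest largely on 1 library per group, and they enter the medians and signs over the 31 members. In U251 1812 against control, 1 of 31 rose, H2AC6, and 0 fell, against 0.41% of all tested genes that rose and 0.582% that fell (0.992% in either direction). The median log2 fold change of the 31 was 0.39, with 24 positive and 7 negative, against 0.01 over all genes. On the poly(A) list 6 of 6 were positive, with a median of 0.77. H2BC8 (log2 fold change 1.70, SE 0.70, adjusted p = 0.26) and H3C8 (-1.28, SE 0.38, adjusted p = 0.12) had the highest and the lowest estimate and were named after their values were seen.

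In U251 1813 against control 0 members rose and 0 fell, where 0.0178% of all tested genes rose, 0.0297% fell and 0.0475% were called in either direction. At an unadjusted p under 0.05 edgeR gave 0 higher and 1 lower member, and DESeq2 also called 0 after adjustment. The members' median was 0.13 against -0.02 over all genes. Between the hairpins, U251 1812 over 1813, edgeR again called 0 members, where 0.0475% of all tested genes were higher and 0.0297% lower (0.0772% in either direction), with 4 higher and 1 lower at an unadjusted p under 0.05, and DESeq2 called 1, H2AC6. The estimate for H2AC6 was 0.65 (SE 0.16, edgeR adjusted p = 0.299). All 6 poly(A)-list genes had positive estimates, with a median of 0.70, against 0.22 over the 31 members and 0.00 over all genes. The comparisons of the hairpins share libraries and are not independent.

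In U87 labelled 1812 against control 2 of 31 fell, H2AC6 and H3C6, and 0 rose, against 7.74% of all tested genes that fell and 5.86% that rose. These shares, 2 of 31 and 0 of 31, are near or below the background. The median was -0.42, with 7 positive and 24 negative, against -0.03 over all genes. H3C6, an H3.1 gene with a long model, had 0.24, 0.22 and 0.35 FPKM with label 1812 against 0.33, 0.69 and 1.09 FPKM in control, so that replicate 3 of the 1812 group overlapped with control replicate 1 (log2 fold change -1.26, SE 0.40, edgeR adjusted p = 0.0487). That call was lost in 10 of the 14 alternatives, and against control replicate 1 alone the log2 fold change was -0.37. In U251 H3C6 had 0.94, 1.28 and 1.03 FPKM with 1812, 1.16, 0.92 and 0.79 FPKM with 1813 and 0.75, 1.23 and 1.48 FPKM in control. The difference between the effects of 1812 in U87 and U251 was called for 1 member, lower, H2AC6, against 2.32% of all tested genes lower and 2.19% higher (4.51% in either direction). The median difference was -0.70 over the 31 members, with 27 negative, and -0.05 over all genes.

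**Figure D5:**
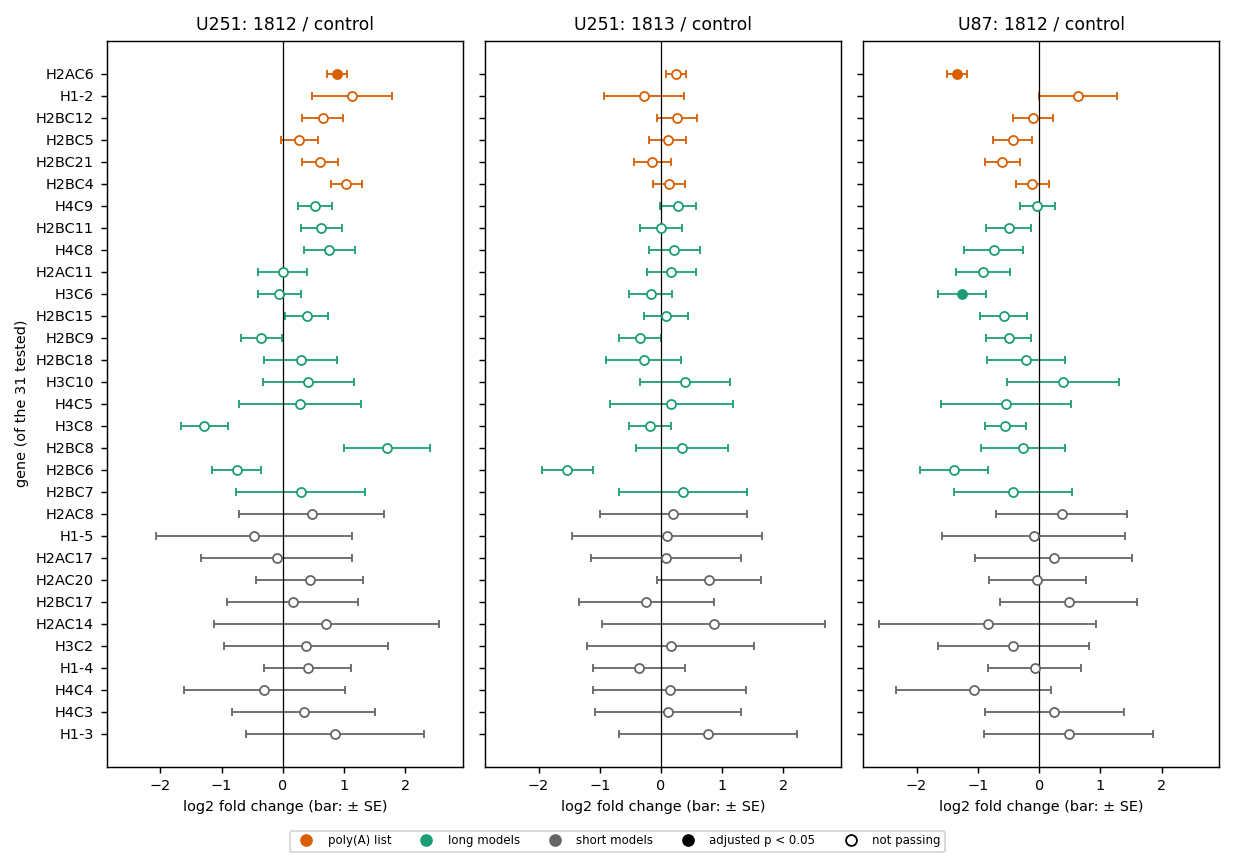
Log2 fold changes (points) with SE (whiskers) of the 31 tested histone genes in U251 1812 over control, U251 1813 over control and U87 labelled 1812 over control, with filled points at an adjusted p under 0.05 (edgeR). H2AC6 is filled to the right of 0 in U251 1812 (0.89) and to the left in U87 (-1.34), where H3C6 (-1.26) is also filled; short models have the widest whiskers.

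Between the control lines, U251 over U87, 3 members were higher and 1 lower, where 24.0% of all tested genes were higher and 26.0% lower. The members' median was 0.00, against -0.04 over all genes. H2AC6 was higher in U251 (log2 fold change 0.78, SE 0.16, edgeR adjusted p = 0.00106). H2BC6, an H2B gene that overlaps a noncoding gene (the counting strand is not given, so its counts are uncertain), was at 0.876, 1.45 and 1.18 CPM in U251 control and 0.269, 0.483 and 0.309 CPM in U87 control (log2 fold change 1.71, SE 0.43, adjusted p = 0.0038). H2BC6 was also lower, short of the threshold, in U251 1813 at 0.198, 0.472 and 0.538 CPM (-1.53, SE 0.42, adjusted p = 0.263) and in U87 labelled 1812 at 0.128, 0.117 and 0.146 CPM (-1.39, SE 0.56, adjusted p = 0.116), on 2 to 8 counts a library. H2BC5, which overlaps the same noncoding gene and a pseudogene on its own strand and is uncertain in the same way, was higher in U251 (0.80, SE 0.31, adjusted p = 0.0436) and H2BC21 lower (-0.80, SE 0.29, adjusted p = 0.0332); with control replicate 1 of each line alone H2BC5 was at 0.15, and neither of them nor H2BC6 passed.

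The H4 genes with the highest levels did not pass in any comparison. H4C9 had 8.35, 6.46 and 7.42 FPKM in U251 1812, 4.57, 5.28 and 8.10 FPKM in U251 1813 and 4.94, 5.12 and 5.55 FPKM in U251 control. In U87 it had 6.65, 3.84 and 3.25 FPKM with label 1812 and 6.05, 4.39 and 4.27 FPKM in control, with replicate 1 high in both, as for H1-2 and H2BC12. H4C8 had 2.64, 3.50 and 4.05 FPKM in U251 1812, 1.41, 2.68 and 2.66 FPKM in U251 1813, and 0.85, 2.56 and 2.77 FPKM in U251 control, against 0.77, 0.22 and 0.81 FPKM in U87 labelled 1812 and 1.10, 0.92 and 1.12 FPKM in U87 control. The 1812 libraries of U87 lay below both the control libraries of that line and those of U251 (difference between the effects -1.49, SE 0.64, edgeR adjusted p = 0.215).

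Many members are near copies of each other, which limits single values. Over 50% of the 100-base windows were shared with another gene in 15 of the 64 members with a transcript, all windows in 7 of them, and none in 42. H3C14 with H3C15 and H4C14 with H4C15 matched over all windows, and H2AC14 over 80.9% with H2AC13. H2AC17 overlaps H3C12 (84.0% of windows). H2AC6, H1-2 and H1-5 shared none, and H2BC12 28.4%.

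The genes that make and place histone mRNA and protein were read from lists beside the members. In U87 labelled 1812, 14 of 45 DNA replication genes rose and 0 fell, with a median of 0.50, against 5.86% and 7.74% of all tested genes and a median of -0.03. Among them were RFC3, a clamp loader subunit (0.86, SE 0.13), POLA1, the catalytic subunit of primase-polymerase alpha (0.80, SE 0.13), MCM10 (0.75, SE 0.16) and RRM1, the large subunit of ribonucleotide reductase (0.64, SE 0.13). Counts under the alternatives, for this and the other lists, stand here without the shares of all tested genes. A change in them thus cannot be read as particular to a list. The count of 14 depended on single libraries, most on U87 control replicate 1, whose replication genes summed to 6680 CPM, within the range of the 1812 group. Without that library 41 rose and 1 fell (median 0.85). With it as the only U87 control 6 rose and 1 fell, and the median was 0.00. A term for control replicates 2 and 3 gave 7 that rose, with a median of 0.20, and without either U87 control replicate 2 or 3 only 5 rose. Without U87 1812 replicate 1 the count was 6 and without its replicate 3 it was 8, while a fit of the U87 groups alone called 0. Over the same libraries the tested histone members had a median of -0.42. By set it was -0.03 over short models, -0.52 over long models and -0.27 over the poly(A) list. U87 control replicate 1 entered these medians too. That library was the highest U87 control in the sums of short models (36.1 CPM), long models (34.3 CPM) and the poly(A) list (145 CPM). Of 33 tested factors of histone mRNA expression, 4 rose (LSM11 0.92, CCNE2 1.00, NCBP1 0.56 and CDK2 0.61) and 1 fell (GON4L -1.08). LSM11 was at 24.6, 23.2 and 22.9 CPM with label 1812 against 14.3, 11.7 and 11.3 CPM in U87 control, with no overlap (SE 0.14, edgeR adjusted p = 0.00161), and its difference between the lines passed (0.85, SE 0.20, adjusted p = 0.0296), a call lost in 13 of 20 alternatives. In this list too the count moved with the controls: 12 rose and 6 fell without U87 control replicate 1, 9 rose and 6 fell with it as the only control, 2 and 3 rose without U87 control replicates 2 and 3, and 0 were called in the U87 groups alone.

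SLBP and NPAT passed in none of the 3 hairpin comparisons with control. SLBP was at 137, 121 and 134 CPM in U87 labelled 1812 against 119, 85.3 and 84.7 CPM in U87 control (log2 fold change 0.44, SE 0.15, edgeR adjusted p = 0.0686), and at 94.3 to 133 CPM in the U251 libraries. NPAT was at 19.6, 15.2 and 21.2 CPM with label 1812 against 7.47, 20.3 and 23.0 CPM in U87 control, and was higher in U251 control than in U87 control (1.10, SE 0.32, adjusted p = 0.0103). Of 23 chaperones and carriers of histones, 3 rose in U87 labelled 1812 (NAP1L1 0.62, HJURP 0.44, HAT1 0.44) and 1 fell (CABIN1 -0.49). The calls of HAT1, HJURP and CABIN1 were lost in 9, 8 and 6 of 14 alternatives, and without U87 control replicate 1 the list had 11 that rose and 4 that fell. In U251 1812, U251 1813 and between the hairpins edgeR called 0 genes of these 3 lists. Its alternatives called at most 2 of a list, all lower: in U251 1812 1 replication gene in the compared groups alone and 2 with the control term, and between the hairpins 2 in the compared groups alone and 2 with control replicate 1 alone. Without a filter on low counts it called 1 chaperone and 1 mRNA factor lower in U251 1812 and 1 chaperone lower in U251 1813. DESeq2 called 1 chaperone lower in U251 1812 and 1 mRNA factor lower in U251 1813. At an unadjusted p under 0.05 edgeR gave, in U251 1812, 2 replication genes and 2 mRNA factors lower and 1 chaperone higher. In U251 1813 it gave 1 mRNA factor lower and 3 chaperones higher, and between the hairpins 2 replication genes lower and 1 mRNA factor higher.

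The list of histones that can be made outside replication, most of them with polyadenylated mRNAs, had the higher summed level in every library. The 13 genes of that list summed to 441 to 896 FPKM, where the 66 replication-dependent genes summed to 89.1 to 307 FPKM, and the gap was narrow in U87 control replicate 1 (507 against 255 FPKM). In U87 labelled 1812, H2AX, which marks DNA breaks when phosphorylated, rose to 90.0, 92.3 and 82.5 CPM against 76.3, 29.8 and 33.0 CPM in control (0.93, SE 0.27, adjusted p = 0.0353), and H2AZ2 rose (0.43, SE 0.12, adjusted p = 0.0296); both calls were lost in 8 of 14 alternatives. For H2AX, control replicate 1 of U87 stood apart from replicates 2 and 3, as it did for the short histone models. Without it the log2 fold change of H2AX was 1.5, and with it as the only U87 control it was 0.21 (edgeR adjusted p = 0.318).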

How the data were processed

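The authors' deposited table holds raw read counts and FPKM values per gene and library, with gene position and exonic length, in GRCh38 per the submitters' processing notes. Those notes name bcl2fastq 2.17.1.14, cutadapt 1.9.1, HISAT2 2.0.1, HTSeq 0.6.1, bedtools 2.17.0 and DESeq2 (used by the authors for an unstated step). Annotation release, counting strand and treatment of multiply mapped reads are not given in the sources used here. FPKM recomputed from the deposited counts and exonic lengths matched within 0.005.

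Groups follow the titles. Counts of all 15 libraries entered a single edgeR 4.0.16 fit (R 4.3.3; TMM scaling, filterByExpr, quasi-likelihood tests, two-sided, Benjamini-Hochberg over 16841 genes, call at an adjusted p under 0.05; 10 residual degrees of freedom, common biological coefficient of variation 0.2255). CPM is per TMM-scaled library size, and SE is that of the log2 fold change. The script was tested on simulated data. The 6 comparisons were each hairpin group against its control, the control lines, the hairpins, and the difference between the effects of 1812. Alternatives were RLE scaling, DESeq2 1.42.0, no filter, the compared groups only, a replicate block, control replicate 1 only, a term for control replicates 2 and 3, each library left out, and, chosen after seeing the data, leaving out the 5 libraries high in short histone models.

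The members and gene lists were chosen with earlier results of these data known. Named members are the 2 with the highest mean FPKM in each class, up to 8 called members per direction with a mean of at least 10 counts in the higher group, and the poly(A) list. Other genes named are LAMP2, SLBP, NPAT, MALAT1 and NEAT1 and up to 4 called genes of each list with the smallest adjusted p. A gene of the list of histones made outside replication is not reported here. Members and marker genes shown for the 5 libraries, for shared promoters or as extremes were chosen after their values were seen. Since no label names separate cultures, the p-values reflect the spread between these libraries alone, which may be technical.

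Same-numbered libraries had correlations of deviations of 0.197 to 0.389 for U251 1813 and control and 0.263 to 0.422 for the control lines. Correlations between differently numbered libraries were not computed, so whether the numbers pair the samples was not tested. For these comparisons, in that order, the replicate block gave 0 and 5 called members, against 0 and 4 without it.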

Additional observations from a re-analysis of the deposited data

Results flagged for a closer look

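The effect of hairpin 1812 on H2AC6 differed between the lines. The log2 fold change was -1.34 in the U87 libraries labelled 1812 and 0.89 in U251 1812, a difference of -2.23 (SE 0.24, edgeR adjusted p = 0.000501), and all 3 libraries of each 1812 group lay on their own side of all 3 controls of the line. The difference passed in all 20 alternatives, at -2.33 to -2.09. LAMP2 counts fell in U251 1812 and did not in the U87 libraries labelled 1812 (log2 fold changes -1.12 and 0.04), and its part in the difference was not tested.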

How the results depend on the processing

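Counts of called members moved with the processing. The shares of all tested genes called under each alternative are not given here, so these moves cannot be read as particular to histone genes. For U87 labelled 1812 against control (2 members), RLE scaling gave 1, the compared groups alone 0, a term for control replicates 2 and 3 gave 1, and leaving out the 5 libraries high in short histone models gave 4 (H2AC6, H2AC11 and H3C6 lower, H1-2 higher); leaving out each library gave 1 to 3. For U251 1812 (1 member), DESeq2, no filter, the replicate block and the control term gave 2 each, the compared groups alone 4 (H2AC6, H2BC4, H1-2 and H2BC12), control replicate 1 alone 0 and leaving out the 5 libraries 0; leaving out each library gave 0 to 1. U251 1813 gave 0 throughout. For the control lines (4 members), control replicate 1 alone gave 2, and leaving out each library 2 to 5. For 1812 over 1813 (0 members), DESeq2, no filter and control replicate 1 alone gave 1 each, the compared groups alone 3, and leaving out each library 0. For the difference between the effects (1 member), the replicate block and control replicate 1 alone gave 2 each, the control term and leaving out the 5 libraries 3 each, and leaving out each library 1 to 4. With the replicate block U87 labelled 1812 gave 3. In the comparisons with 1812 the samples share a number, with correlations of deviations of -0.092 to 0.206, and pairing was not tested there either. The log2 fold change of LAMP2 in U87 (0.04) changed sign without U87 control replicate 1 (-0.12), without U87 1812 replicate 3 (-0.01) and without the 5 libraries (-0.18), and leaving out each library gave -0.12 to 0.14. Of 794 alternative values for single genes, 614 kept direction and side of the threshold, 171 fell short of it, 6 passed it and 3 reversed; causes were not tested. Low counts limit what could be seen: 35 of 66 members could not be tested.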
